A study of Danio rerio with 4 samples.

Results

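Mitochondrial ribosome proteins are the protein subunits of the ribosome inside mitochondria. Their genes are nuclear, their products are made in the cytosol and imported, and inside the organelle they assemble with mitochondrial rRNA into a large and a small subunit. This ribosome translates the few mRNAs encoded by mitochondrial DNA, which specify core subunits of the respiratory chain and of ATP synthase. Blood stem cells of adult mammals are known for a low reliance on respiration, which rises as they differentiate. The genes were taken as every row of the deposited count table whose symbol begins with mrpl or mrps followed by a number, in upper or lower case. This gave 76 of 31947 genes, 47 with a large-subunit (mrpl) and 29 with a small-subunit (mrps) symbol. Cytosolic ribosomal proteins (rpl and rps) are not among them.

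The counts come from bulk RNA sequencing of cells sorted by flow cytometry from the tails of zebrafish embryos at 52 hours post fertilisation, the region that holds the caudal hematopoietic tissue (CHT). Cells positive for the transgene kdrl:mCherry, driven by the promoter of an endothelial VEGF receptor, form the group CHT-EC (the kdrl gate, 2 libraries). Cells positive for CD41:GFP, driven by the promoter of an integrin of stem cells and thrombocytes, form the group CHT-HSPC (the CD41 gate, 2 libraries). The labels name no treatment and no mutation, and do not say how many embryos were pooled or whether libraries of 1 gate were sorted separately, so the p-values rest on a spread among samples that could be technical. Pairs of values below are replicates 1 and 2, in that order.

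The libraries held 27514202 to 32268535 counts, and mitochondrial ribosome protein genes took between 0.162% and 0.270% of them. Levels are given as CPM, counts scaled to a common library size with TMM factors, and are not corrected for transcript length, so they are compared between libraries and not between genes. Markers of other cell types were present in both gates. Endothelial markers (11 rows for 10 symbols, all with counts in each group) summed to 173 and 70.8 CPM in the kdrl gate against 45.3 and 35.2 CPM in the CD41 gate, and 0 of 11 passed the test. Of 8 neutrophil markers, all 8 were higher in CHT-EC, with sums of 23083 and 18422 against 1211 and 1385 CPM. Of 8 erythroid markers, 7 were higher there, with sums of 19088 and 34424 against 2017 and 1228 CPM. Markers of thrombocytes and stem cells were higher in CHT-HSPC for 7 of 9 tested, with sums of 1338 and 925 against 3572 and 3475 CPM. Macrophage markers (9 of 18 tested) and skin or notochord markers (3 of 10) were higher in CHT-EC as well. Of 22 macrophage rows, 6 were at 0 in CHT-HSPC and 3 at 0 in CHT-EC. In bulk samples, fewer cells of a type and less RNA per cell cannot be told apart.

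None of the 76 mitochondrial ribosome protein genes passed the test between the gates, although most lay toward CHT-HSPC. All 76 were abundant enough to be tested, with 149 to 3958 counts per library. In the quasi-likelihood test of edgeR, at an adjusted p under 0.05 over 19016 genes, 0 members were called in either direction, where 4.53% of all genes tested were called (3.78% toward CHT-EC and 0.752% toward CHT-HSPC). At an unadjusted p under 0.05, 11 members (14.5%) lay toward CHT-HSPC and 0 toward the other gate, beside 9.23% and 14.6% of all genes. DESeq2 called 2 members higher in CHT-HSPC, mrpl39 and mrpl42, beside 4.19% of all genes in that direction, and limma-voom called 0, beside 1.23%.

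The direction was shared by most members. The fitted log2 fold change, CHT-EC minus CHT-HSPC, was below 0 for 63 of 76 members (82.9%), against 49.2% of all genes. Its median was −0.43 over the members and 0.02 over all genes tested. The middle 50% of the members ran from −0.71 to −0.14, and the whole range ran from −1.38 for mrpl42 to 0.55 for mrps21. In 38 of 76 members both CHT-HSPC libraries lay above both CHT-EC libraries, as in 27.9% of all genes. The reverse held for 1 member, mrps21, and for 30.6% of all genes. The remaining 37 members overlapped between the gates.

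**Figure D1:**
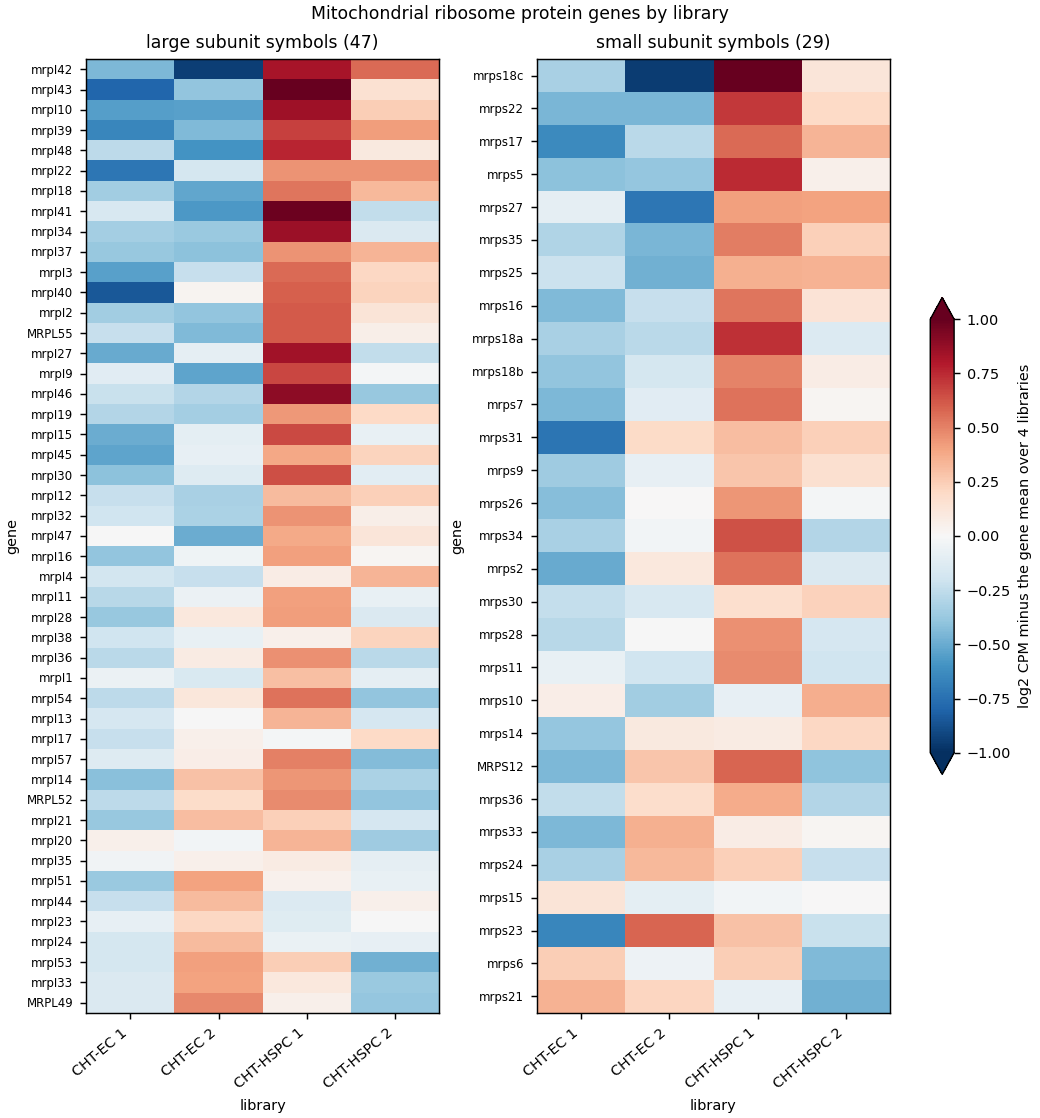
Each row is a gene and each column a library; the colour is log2 CPM minus the mean of that gene over the 4 libraries, with rows ordered by fitted fold change. CHT-HSPC replicate 1 is the highest column for most genes. The position of CHT-HSPC replicate 2 varies, above both CHT-EC libraries for some genes, within or below their range for others, and above CHT-HSPC replicate 1 for a few.

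The precision of the comparison limited what could be called. The standard error of a member's log2 fold change had a median of 0.37 and ran from 0.26 to 0.54. Given these errors and the largest p that was called among all genes, a member needed a log2 difference of 1.74 (median; 1.21 to 2.54) to pass. The 95% interval excluded 0 for 11 members, and for 61 of 76 it reached below −1, so that a 2-fold higher level in CHT-HSPC lies within the interval of most members that did not pass.

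**Figure D2:**
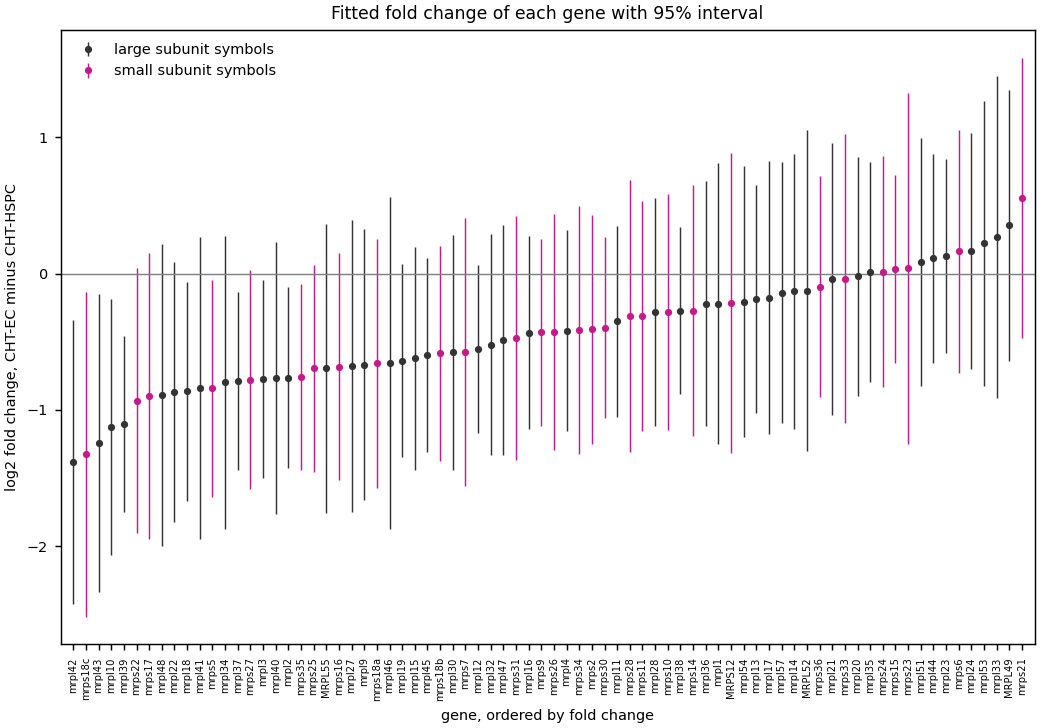
Points are fitted log2 fold changes, CHT-EC minus CHT-HSPC, of the 76 genes in order of size, and bars are 95% intervals from the edgeR fit with 2 libraries per gate; colour marks the subunit given by the symbol. Of the 76 intervals, 65 include 0, and the genes of both subunits are spread along the whole order.

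The spread between the CHT-HSPC libraries was as large as the difference between the gates. Summed over the 76 members, the level was 1674 and 1927 CPM in the kdrl gate and 2795 and 2130 CPM in the CD41 gate. Both CHT-HSPC sums were above both CHT-EC sums, at 2462 ± 470 against 1801 ± 179 CPM (mean ± SD, n = 2 libraries throughout), and replicate 2 of CHT-HSPC was nearer to the CHT-EC libraries than to its own replicate. By gene, 66 of 76 members were higher in CHT-HSPC replicate 1 than in replicate 2, with a median log2 difference of 0.43, while 47.8% of all genes were and their median was −0.02. Within CHT-EC, 49 members were higher in replicate 2 (median log2 difference, replicate 1 minus replicate 2, of −0.22), beside 48.5% of all genes. Without CHT-HSPC replicate 1 the median fold change of the members was −0.21, with 48 of 76 below 0, and without CHT-HSPC replicate 2 it was −0.58, with 68 below 0.

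Muscle markers also set CHT-HSPC replicate 1 apart. The sum of 10 muscle markers was 13929 CPM in that library, against 1725 CPM in CHT-HSPC replicate 2 and 2697 and 6025 CPM in CHT-EC replicates 1 and 2. All 10 had counts in every gate, and all 10 were higher in CHT-HSPC replicate 1 than in replicate 2. Of 11 rows of proliferation markers 2 were higher in CHT-HSPC, where 0.752% of all genes were called. Their sum was 1296 and 1938 CPM in the kdrl gate and 2823 and 2189 CPM in the CD41 gate. Of these rows, 10 were higher in CHT-HSPC replicate 1 than in replicate 2, and all 11 in CHT-EC replicate 2 than in replicate 1. The order of the 4 libraries was that of the mitochondrial ribosome proteins. Every list of nuclear genes summed below had this order too, such as cytosolic ribosomal proteins (107968 and 108382 against 141243 and 122614 CPM). The part of the muscle and proliferation markers in the members' levels was not tested.

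Large and small subunit genes took the same side with similar medians, a comparison that was not tested. The median fold change was −0.49 over the 47 mrpl genes, of which 39 were below 0, and −0.42 over the 29 mrps genes, of which 24 were. The mrpl genes summed to 1123 ± 114 CPM for CHT-EC and 1559 ± 295 CPM for CHT-HSPC, a ratio of 1.39. The mrps genes summed to 677 ± 64.5 and 904 ± 175 CPM, a ratio of 1.33. Symbols follow the first assignment of each protein, and in mammalian structures mrps18a and mrps30 belong to the large subunit. Members numbered up to L36 and S21, numbers that follow the protein families of the bacterial ribosome, had a median of −0.43 (44 genes), and those with higher numbers, most of which have no bacterial counterpart, had a median of −0.45 (32 genes).

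The members with the smallest p toward CHT-HSPC were all of the large subunit. The gene mrpl39 (ENSDARG00000041570), which encodes a mitochondria-specific subunit related in sequence to threonyl-tRNA synthetase, was at 40.4 and 46.7 CPM in the kdrl gate and at 102 and 84.8 CPM in the CD41 gate. Both CD41 values were above both kdrl values, with a log2 difference of −1.10 (SE 0.27, adjusted p = 0.0727). It did pass with DESeq2 (adjusted p = 0.0106) and when the filter on low counts was dropped (adjusted p = 0.0166). The gene mrpl42 (ENSDARG00000079391), another mitochondria-specific subunit, was at 7.12 and 5.06 CPM in the kdrl gate and at 17.3 and 14.5 CPM in the CD41 gate. Its gates did not overlap either (log2 difference −1.38, SE 0.44, adjusted p = 0.124), and it passed with DESeq2 alone (adjusted p = 0.0400). The level of mrpl37 (ENSDARG00000062916), also without a bacterial counterpart, was 33.5 and 33.0 CPM in the kdrl gate and 59.6 and 55.3 CPM in the CD41 gate. Its replicates were close to each other within each gate, and the fold change was −0.79 (SE 0.28, adjusted p = 0.148).

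The stalk of the large subunit, which recruits translation factors, is formed by mrpl10, its anchor, and mrpl12, its mobile arm. The level of mrpl10 (ENSDARG00000045091) was 10.5 and 10.5 CPM in the kdrl gate and 27.5 and 18.2 CPM in the CD41 gate (log2 difference −1.12, SE 0.40, adjusted p = 0.149). That of mrpl12 (ENSDARG00000038768), whose mammalian product also binds the mitochondrial RNA polymerase, was 52.8 and 49.7 CPM in the kdrl gate and 77.4 and 73.1 CPM in the CD41 gate (log2 difference −0.55, SE 0.26, adjusted p = 0.251). For each gene both CHT-HSPC values were above both CHT-EC values, as in 27.9% of all genes. The replicates of mrpl12 differed little. The gene for mrpl11 (ENSDARG00000013075), a neighbour of the stalk base chosen after its values were seen, was at 49.3 and 57.5 CPM in the kdrl gate and at 79.4 and 56.7 CPM in the CD41 gate, so its gates did overlap.

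Around the peptidyl transferase centre, mrpl2 (ENSDARG00000062568), whose product lies close to the catalytic rRNA, was at 68.2 and 66.3 CPM in the kdrl gate and at 133 and 94.9 CPM in the CD41 gate. The CHT-EC values were nearly equal and both were lower (log2 difference −0.76, SE 0.28, adjusted p = 0.163). The gene mrpl3 (ENSDARG00000103318), a further protein near the catalytic centre and one of the 11 members with an unadjusted p under 0.05, was at 27.5 and 34.1 CPM in the kdrl gate and at 59.1 and 46.3 CPM in the CD41 gate (log2 difference −0.77, SE 0.31, adjusted p = 0.186). The level of mrpl43 (ENSDARG00000076334), a mitochondria-specific subunit, was 7.23 and 9.55 CPM in the kdrl gate and 25.7 and 14.0 CPM in the CD41 gate (log2 difference −1.24, SE 0.46, adjusted p = 0.167). Its CHT-HSPC replicates stood farther apart than the lower of them stood from CHT-EC. The gene mrpl18 (ENSDARG00000060199), of the central protuberance, was at 16.4 and 14.5 CPM in the kdrl gate and at 30.1 and 26.1 CPM in the CD41 gate (log2 difference −0.86, SE 0.34, adjusted p = 0.184). Of these 4 genes, mrpl3 and mrpl18 were named after their values were seen.

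**Figure D3:**
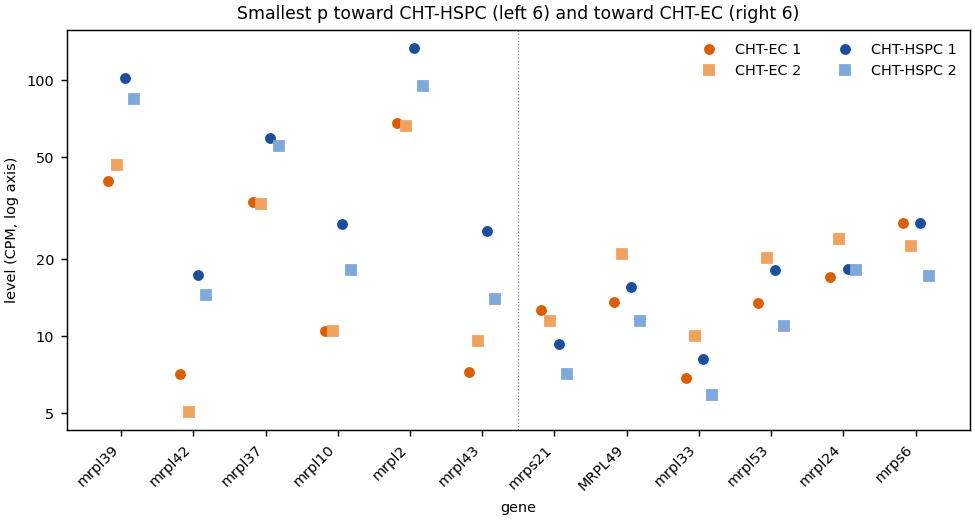
Points are CPM on a log axis in each of the 4 libraries, for the 6 members with the smallest p toward CHT-HSPC (left of the dotted line) and the 6 toward CHT-EC (right). For the 6 on the left both CHT-HSPC points lie above both CHT-EC points, and on the right this separation in reverse is seen for mrps21 and not for the other 5. The genes were chosen for small p, which favours such separation. Over all genes it held toward CHT-HSPC for 27.9% and in reverse for 30.6%.

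Among genes with mrps symbols, mrps35 (ENSDARG00000038456), a mitochondria-specific protein, was at 35.6 and 31.9 CPM in the kdrl gate and at 62.6 and 51.7 CPM in the CD41 gate. The gates did not overlap (log2 difference −0.76, SE 0.29, adjusted p = 0.173). The gene mrps5 (ENSDARG00000062209), whose bacterial relative lies at the mRNA entry and affects decoding accuracy, was at 29.7 and 30.2 CPM in the kdrl gate and at 66.3 and 40.9 CPM in the CD41 gate (log2 difference −0.84, SE 0.34, adjusted p = 0.189). The 3 paralogs related to bacterial S18 lay toward CHT-HSPC, as did 24 of the 29 mrps genes. In the order CHT-EC 1, CHT-EC 2, CHT-HSPC 1 and CHT-HSPC 2, mrps18c (ENSDARG00000069624) was at 9.37, 6.08, 25.9 and 12.8 CPM, mrps18b (ENSDARG00000007065) at 20.2, 23.5, 37.6 and 28.0 CPM, and mrps18a (ENSDARG00000024465) at 20.4, 21.1, 42.2 and 23.2 CPM. Both CHT-HSPC values were above both CHT-EC values for each of these 3 genes. The same held for 14 of the 29 mrps genes and for 27.9% of all genes. In the order mrps18c, mrps18b and mrps18a, the fold changes were −1.32 (SE 0.50, adjusted p = 0.174), −0.59 (SE 0.33, adjusted p = 0.336) and −0.66 (SE 0.39, adjusted p = 0.348). Of the genes in this paragraph, mrps35 and no other came from the naming rule.

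Among the members with the most counts, the difference between the gates varied. The genes with the highest mean CPM were mrpl2, mrpl38, mrpl39 and mrpl12 among mrpl symbols and mrps2, mrps36, mrps35 and mrps30 among mrps symbols. The level of mrpl38 (ENSDARG00000039667), a mitochondria-specific subunit, was 60.5 and 65.9 CPM in the kdrl gate and 71.8 and 80.9 CPM in the CD41 gate (log2 difference −0.27, SE 0.26, adjusted p = 0.572). That of mrps30 (ENSDARG00000104111) was 35.4 and 37.4 CPM in the kdrl gate and 46.9 and 48.9 CPM in the CD41 gate (log2 difference −0.40, SE 0.28, adjusted p = 0.434). In both genes the replicates were close and the gates did not overlap, with a smaller difference than in mrpl39. Over all genes, both CHT-HSPC libraries were above both CHT-EC libraries in 27.9%. The gene mrps2 (ENSDARG00000103198), related to bacterial S2, was at 42.7 and 65.2 CPM in the kdrl gate and at 88.3 and 54.9 CPM in the CD41 gate, so the gates overlapped (log2 difference −0.41, SE 0.36, adjusted p = 0.532). The level of mrps36 (ENSDARG00000079823) was 38.5 and 51.5 CPM in the kdrl gate and 59.1 and 37.2 CPM in the CD41 gate, with the highest and the lowest value both in CHT-HSPC (log2 difference −0.10, SE 0.34, adjusted p = 0.903). A current gene name table lists mrps36 as kgd4, a subunit of the 2-oxoglutarate dehydrogenase complex, and without it the median of the members was −0.43 as before.

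The 13 members on the CHT-EC side had fold changes of at most 0.55. The gene mrps21 (ENSDARG00000070985), related to a small protein of the bacterial small subunit, was at 12.6 and 11.5 CPM in the kdrl gate and at 9.37 and 7.11 CPM in the CD41 gate (log2 difference 0.55, SE 0.43, adjusted p = 0.486). Both CHT-EC values were higher, by less than the interval of −0.48 to 1.58 could separate from 0. The level of MRPL49 (ENSDARG00000075422) was highest in CHT-EC replicate 2 and lowest in CHT-HSPC replicate 2, at 11.5 CPM (log2 difference 0.35, SE 0.42, adjusted p = 0.662). Between them lay CHT-EC replicate 1 at 13.6 CPM and CHT-HSPC replicate 1 at 15.6 CPM. Its counts, not scaled to library size, were 364 and 618 in the kdrl gate and 464 and 398 in the CD41 gate. Of the 76 members, mrps21 and MRPL49 kept a fold change above 0 in each fit that included them, 47 kept one below 0, and 27 differed in sign between fits. There were 14 fits, and 71 of the 76 members entered the fit with a mean of at least 10 CPM. The other 4 members with the smallest p on this side, mrpl33 (0.27), mrpl53 (0.22), mrpl24 (0.16), which lies near the exit of the peptide tunnel, and mrps6 (0.16), had adjusted p of 0.795 to 0.838, and each overlapped between the gates. The gene mrpl44 (ENSDARG00000094277), an RNase III-like subunit chosen after its values were seen, was at 31.7 and 46.3 CPM in the kdrl gate and at 33.7 and 38.5 CPM in the CD41 gate, within the CHT-EC range in both.

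Some members differed most between replicates of a gate. In CHT-EC, mrps23 was at 6.30 and 14.85 CPM, mrps31 at 20.7 and 39.1 CPM, and mrpl40 at 10.8 and 19.8 CPM in replicates 1 and 2. All 3 were lower in CHT-EC replicate 1. In CHT-HSPC, mrpl46 was at 21.9 and 9.05 CPM, mrpl41 at 44.3 and 18.9 CPM, and mrpl27 at 35.99 and 16.9 CPM in replicates 1 and 2. Each of these 3 was over 2-fold higher in replicate 1, and replicate 2 was within or below the range of the CHT-EC values of 10.04 and 9.58, 20.1 and 15.1, and 14.2 and 18.9 CPM. Their fold changes of −0.66, −0.84 and −0.68 (adjusted p = 0.485, 0.326 and 0.408) were 0.12, −0.10 and −0.03 without CHT-HSPC replicate 1.

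A further 6 proteins of the mitochondrial ribosome carry symbols outside the mrp series. The gene dap3, for a GTP-binding protein of the small subunit, was at 54.7 and 49.9 CPM in the kdrl gate and at 91.6 and 77.2 CPM in the CD41 gate (log2 difference −0.69, SE 0.27, adjusted p = 0.178). The gene ptcd3, for a pentatricopeptide repeat protein of the small subunit, was at 29.3 and 33.5 CPM in the kdrl gate and at 61.8 and 60.2 CPM in the CD41 gate (log2 difference −0.96, SE 0.28, adjusted p = 0.104). Both genes showed gates that did not overlap. The same held for chchd1, at 15.7 and 16.6 CPM in the kdrl gate and at 24.4 and 18.6 CPM in the CD41 gate. The gates overlapped for ict1, gadd45gip1 and aurkaip1. Over all genes, both CHT-HSPC libraries lay above both CHT-EC libraries in 27.9%. The fold changes of chchd1 (−0.41), ict1 (−0.29), gadd45gip1 (0.01) and aurkaip1 (0.07) were nearer to 0. None of these 6 genes passed in edgeR, and ptcd3 passed with DESeq2 (adjusted p = 0.0339).

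Most genes in lists of mitochondrial translation, mitochondrial DNA upkeep and regulation of mitochondrial biogenesis lay on the same side, and 1 of them passed in edgeR. The list of regulators holds transcription factors such as the myc genes and yy1a, which are not parts of the translation machinery. The lists of translation factors and of assembly also hold the 6 genes of the preceding paragraph (ptcd3 and ict1 in the former, the other 4 in the latter). A fold change below 0 was found for 16 of 19 tested translation factors and regulators and 26 of 28 genes of ribosome assembly and rRNA modification. The same held for 19 of 21 rows of synthetases, 12 of 15 rows of mitochondrial DNA transcription and maintenance, and 10 of 13 rows of biogenesis regulators. Of all genes tested, 49.2% lay below 0. Toward CHT-HSPC, 9.23% of all genes had an unadjusted p under 0.05 in edgeR, and 0.752% were called. DESeq2 called 4.19% of all genes in that direction and limma-voom 1.23%. Of 19 tested translation factors and regulators, 0 passed in edgeR, 6 lay higher in CHT-HSPC at an unadjusted p under 0.05, and the median was −0.63, with 3 calls by DESeq2 and 1 by limma-voom. The gene lrpprc, for a protein that stabilises mitochondrial mRNAs, was at 204 and 183 CPM in the kdrl gate and at 400.5 and 403 CPM in the CD41 gate (log2 difference −1.06, SE 0.24, adjusted p = 0.0581). That gene passed with DESeq2 (adjusted p = 0.00305) and limma-voom (adjusted p = 0.0312). Of 28 genes of ribosome assembly and rRNA modification, 0 passed, 6 had an unadjusted p under 0.05 and the median was −0.60, with 2 calls by DESeq2 and 0 by limma-voom. The smallest p there belonged to ngrn (−1.30, adjusted p = 0.107) and fastkd2 (−0.92, adjusted p = 0.120), both required for the large-subunit rRNA in human cells.

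Mitochondrial aminoacyl-tRNA synthetases and the amidotransferase subunits that complete glutaminyl-tRNA gave the only call of edgeR in these lists. Among 21 tested rows 1 was higher in CHT-HSPC and 9 (42.9%) had an unadjusted p under 0.05, with a median of −0.70. The shares of all genes in that direction were 0.752% and 9.23%. DESeq2 called 3 of them (mars2, qrsl1 and yars2) and limma-voom 1 (qrsl1). The list also holds hars (ENSDARG00000003693), a symbol not specific to mitochondria, at 187 and 195 against 258 and 220 CPM. It forms a large part of the summed level of the list, which was 390 and 436 against 649 and 601 CPM. The gene qrsl1 (ENSDARG00000032704), for an amidotransferase subunit, was at 11.6 and 9.07 CPM in the kdrl gate and at 37.2 and 29.7 CPM in the CD41 gate. It was higher in CHT-HSPC by a log2 fold change of −1.70 (SE 0.36, adjusted p = 0.0496), a call that ended when any library was left out (adjusted p = 0.0691 to 0.174), with the replicate number as a block (0.0574) and with library totals alone (0.0549). The tyrosyl-tRNA synthetase yars2 (ENSDARG00000077299) had a fold change of −1.37 (SE 0.34, adjusted p = 0.0727). A second row named yars2 (ENSDARG00000101563), with 5 and 43 counts in the kdrl gate and 18 and 8 counts in the CD41 gate, was at 0.97 (SE 1.57, adjusted p = 0.758). Of 15 tested rows of mitochondrial DNA transcription and maintenance, 0 passed and 4 had an unadjusted p under 0.05. DESeq2 called 2 and limma-voom 0, and the median was −0.62. First in order were trmt10c (−1.32, adjusted p = 0.0928), a tRNA-processing subunit, and the RNA helicase gene supv3l1 (−1.14, adjusted p = 0.109). The rows named top1mt lay on opposite sides, at 0.33 (ENSDARG00000027824, adjusted p = 0.472) and −0.31 (ENSDARG00000104809, adjusted p = 0.738). Of 13 rows for regulators of mitochondrial biogenesis, 0 passed and 1 (7.69%) had an unadjusted p under 0.05, a smaller share than the 9.23% of all genes. DESeq2 called 1 and limma-voom 0, and the median was −0.17. The smallest p there were those of PPRC1 (ENSDARG00000098666; −1.09, adjusted p = 0.115), a coactivator of the PGC-1 family, and mycb (0.45, adjusted p = 0.328), on the CHT-EC side. Another row with this symbol in lower case, pprc1 (ENSDARG00000090337), was at −0.39 (SE 0.29, adjusted p = 0.449). Its mean level over all libraries was 146 CPM, beside 52.5 CPM for the PPRC1 row.

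**Figure D4:**
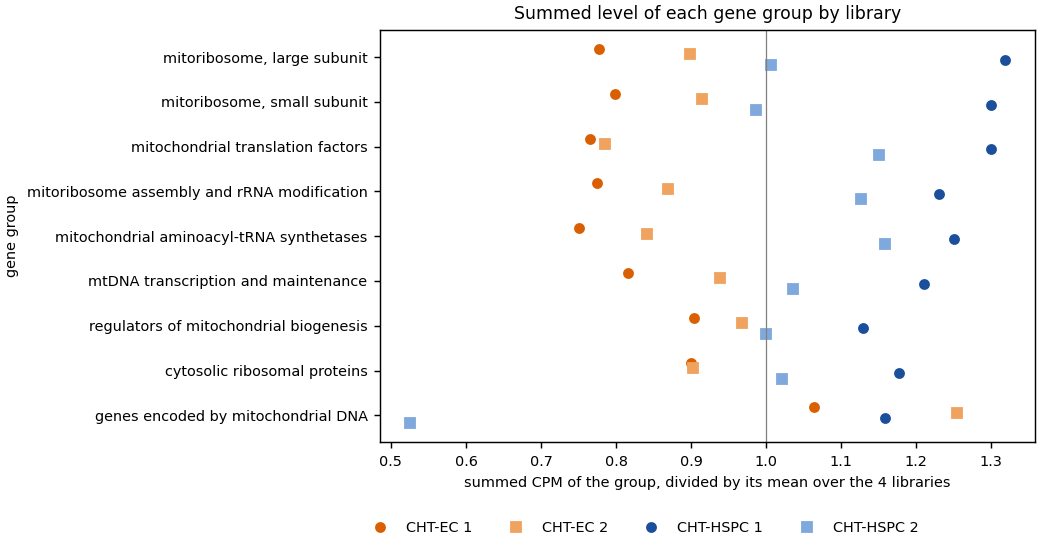
Points are the summed CPM of each gene group in each library, divided by the mean of that group over the 4 libraries. For both mitoribosome subunits and 6 of the other groups the CHT-HSPC libraries lie above the CHT-EC libraries, and for genes encoded by mitochondrial DNA CHT-HSPC replicate 2 lies far below the others.

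The mRNAs that this ribosome translates did not share its direction. With all 4 libraries and the filter on low counts, all 13 genes encoded by mitochondrial DNA had a fitted fold change above 0. Their median was 0.63. There 0 passed in edgeR, DESeq2 or limma-voom, and 0 had an unadjusted p under 0.05 in edgeR. The gates overlapped for 10 of the 13 genes. For the other 3, both CHT-EC libraries lay above both CHT-HSPC libraries, as in 30.6% of all genes. When genes of low count were kept, edgeR called 3 of the 13 genes, mt-atp6, mt-nd1 and mt-nd3, higher in CHT-EC. In that setting the calls toward CHT-EC rose over all genes as well. The sum over all 13 was 35812 and 42240 CPM in the kdrl gate and 38992 and 17693 CPM in the CD41 gate. CHT-HSPC replicate 2 was lowest and the other 3 libraries lay together. Without CHT-HSPC replicate 1 the median fold change was 1.34, and without CHT-HSPC replicate 2 it was 0.17. The size of the difference thus depended on which CHT-HSPC library was kept. The smallest p in the full comparison belonged to mt-co2, a cytochrome c oxidase subunit (6149 and 5946 against 4782 and 3031 CPM, adjusted p = 0.217), and mt-nd3, a complex I subunit (115 and 140 against 101 and 27.9 CPM, adjusted p = 0.327).

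Cytosolic ribosomal proteins, set beside them for comparison, took the same side by a smaller amount. Of 79 tested rows, which include rps19bp1, a binding protein whose symbol has the same start, 71 had a fold change below 0, against 49.2% of all genes. Their median was −0.24. In edgeR 0 passed and 4 (5.06%) had an unadjusted p under 0.05 toward CHT-HSPC, a smaller share than the 9.23% of all genes. DESeq2 made 1 call there, beside 4.19% of all genes, and limma-voom 0. Their sum was 108175 ± 293 CPM for CHT-EC and 131929 ± 13173 CPM for CHT-HSPC, a ratio of 1.22, beside 1.37 for the mitochondrial ribosome. The smallest p were those of 1 of 2 rows named rpl37 (ENSDARG00000076360; −1.51, adjusted p = 0.115) and of rpl3 (−0.56, adjusted p = 0.170), and rows that share a symbol may also share reads. The difference between both kinds of ribosomal protein was not tested.

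**Figure D5:**
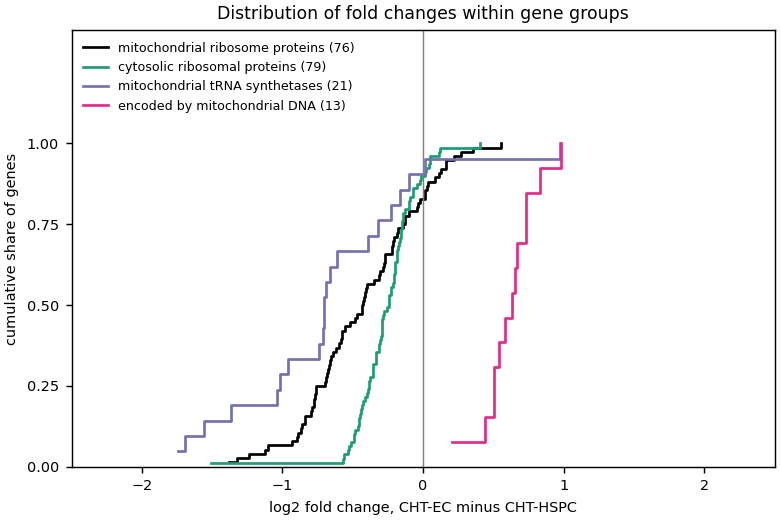
Curves give the cumulative share of genes at or below each log2 fold change, CHT-EC minus CHT-HSPC, for 4 gene groups with the number of genes in brackets. The curve of the mitochondrial ribosome proteins crosses 50% at −0.43, that of the cytosolic ribosomal proteins at −0.24, that of the synthetases at −0.70 and that of the genes encoded by mitochondrial DNA at 0.63.

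Some members share their position with another gene. In the RefSeq annotation of the assembly GRCz12tu, to which all 76 symbols or their current names matched, 23 members overlap another gene, among them mrpl47 with ndufb5, a complex I subunit, and mrpl9 and mrpl24, both with mllt11. Of the 24 members chosen by the naming rule, 8 overlap a gene there, namely mrpl2, mrpl24, mrpl33, mrpl37, mrpl40, mrpl53, mrps23 and mrps35. Overlap was taken from whole gene spans, which do not show whether exons are shared. A strand setting is not given in the sources used here, so reads in a shared stretch may not be told apart. Whether such reads entered the counts was not tested.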

How the data were processed

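The authors deposited raw counts by Ensembl gene in 1 table, with 4 libraries as columns. Per the labels' protocols, NEBNext Ultra libraries from column-purified RNA were sequenced as 150 bp paired-end reads. TopHat2, HTSeq 0.6.1 and the build GRCz10 are named, per the submitters' processing notes. The annotation used and the handling of multiply mapped reads are not given in the sources used here. Columns were tied to samples by name (HSC in the table for HSPC in the titles). The filter of edgeR 4.0.16 in R 4.3.3 (minimum count 10, minimum total 15) left 19016 genes, which were scaled by TMM and tested with the quasi-likelihood F-test without a block, with Benjamini-Hochberg adjustment over all of them. An adjusted p with no tool beside it is from edgeR. Standard errors were derived from F (the size of the log2 fold change over the root of F). Differences between replicates use log2(CPM + 0.5). DESeq2 1.42.0 and limma-voom 3.58.1, other scalings and filters, and fits without each library were the alternatives. PCR reads without molecular identifiers were counted, so counts do not equal molecules.

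The members and gene lists were chosen with earlier results of these data known. The genes named are those past the threshold, the 6 of smallest p in each direction, the 4 of highest mean CPM in each subunit, the 3 with the largest replicate difference in each gate among those with a mean of at least 10 CPM, and the 2 of smallest p in each list. Of the rows matched by the pattern for cytosolic ribosomal proteins, 11 kinase genes (rps6k) were left out after they were seen.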

Additional observations from a re-analysis of the deposited data

How the results depend on the processing

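No member was called under 11 of 13 alternatives; 1 was called when genes of low count were kept and 2 by DESeq2. The median fold change of the members and those of both subunits stayed below 0 under every alternative run. For the members' median this ran from −0.58 to −0.21 with 1 library left out, and it was −0.30 over 71 members with a mean of at least 10 CPM. That setting moved the fold changes of the genes present in both fits by a median of 0.14 on the log2 scale. The log2 ratio of the summed levels, CHT-EC over CHT-HSPC, also stayed below 0 where it was recomputed, which excludes DESeq2, limma-voom and the block. Over all genes, 718 calls toward CHT-EC and 143 toward CHT-HSPC became 2012 and 796 by DESeq2. They were 705 and 233 by limma-voom, and 471 and 103 with library totals alone. When genes of low count were kept, which raised the number of genes tested above 19016, the calls were 2119 and 812. With 1 library left out they ran from 111 to 864 and from 10 to 139, both lowest without CHT-EC replicate 1. The 5 lists of translation factors, ribosome assembly, synthetases, mitochondrial DNA maintenance and biogenesis regulators together held 1 call toward CHT-HSPC. In that order they had 19, 28, 21, 15 and 13 rows tested. The 1 call became 5 when genes of low count were kept, 11 by DESeq2, 2 by limma-voom, 0 with library totals alone and 0 with the replicate block. Of all genes, 0.752% were called toward CHT-HSPC by edgeR, 4.19% by DESeq2 and 1.23% by limma-voom. The cause of these changes was not tested.

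Equal replicate numbers carried no sign of pairing: the replicate differences of the gates had a Pearson correlation of 0.00169 across 19016 genes, a description. With the replicate number as a block 0 members were called, with a median of −0.43. Signs turned for 7 of the named members. With 1 library left out, the fold change ran from −0.013 to 0.52 for mrpl33, from −0.085 to 0.63 for mrpl53, from −0.087 to 0.39 for mrpl24, from −0.10 to 0.54 for mrps6, from −0.36 to 0.27 for mrps36, from −0.69 to 0.54 for mrps23 and from −1.12 to 0.12 for mrpl46. It was 0.039 for mrps36 with a mean of at least 10 CPM, and for mrps23 −0.033 by limma-voom and −0.065 with the block, against 0.04. A fit that leaves out a library assumes that the lone library of that gate varies like the other gate.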
